A study of Anguilla anguilla with 12 samples.

Results

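The let-7 seed family of the European eel (Anguilla anguilla) liver was described from 1 pooled list of predicted miRNA precursors. Members were the entries of that list whose zebrafish example with the same seed is named let-7 or miR-98. The seed is the stretch of bases 2 to 8 of a mature miRNA, counted from its 5′ end, through which a miRNA mainly recognises its targets. The rule found 24 of 820 entries, which held 14 of 676 distinct mature sequences. All 24 carried the example name let-7j and 0 carried miR-98, so the list gives no letter name to single family members. They are called sequence 1 to sequence 14 here, in order of their mature reads.

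Small RNAs had been sequenced from livers of eels at the yellow stage, in which the species feeds and grows. There were 6 eels from the Gironde Estuary, which the study describes as polluted, and 6 eels from Arcachon Bay, which it describes as pristine. The study set out to compare the sites, but the list gives each read count once, with no column per eel. The sites could therefore not be compared here, and no spread between eels, standard deviation or test is given.

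The let-7 family is one of the oldest known miRNA families and is shared by animals from worms to vertebrates. A let-7 miRNA is cut from a hairpin precursor, usually from its 5p arm, while the opposite star arm is mostly degraded. In vertebrates its mature forms rise as cells differentiate and restrain growth-promoting genes, and in mice they also bear on glucose metabolism. The protein LIN28 blocks its maturation in mammals by binding the precursor between the arms, at the letters GGAG.

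The sequences below are the 14 members as listed, 5′ to 3′, with the shared seed in capitals. They are shown because the family differs only outside the seed.
let-7 sequence 1: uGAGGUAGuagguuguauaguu
let-7 sequence 2: uGAGGUAGuagauuggauaguu
let-7 sequence 3: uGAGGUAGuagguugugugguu
let-7 sequence 4: uGAGGUAGuuguuuguacaguu
let-7 sequence 5: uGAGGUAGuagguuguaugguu
let-7 sequence 6: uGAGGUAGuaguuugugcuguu
let-7 sequence 7: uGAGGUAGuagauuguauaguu
let-7 sequence 8: uGAGGUAGuaguuuguauaguu
let-7 sequence 9: uGAGGUAGuagguuguacaguu
let-7 sequence 10: uGAGGUAGuaaguuguguuguu
let-7 sequence 11: uGAGGUAGuugguuguaugguu
let-7 sequence 12: aGAGGUAGcagauugcauaguu
let-7 sequence 13: uGAGGUAGauuggauagug
let-7 sequence 14: uGAGGUAGuagguuaaga

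The let-7 family was the second most abundant seed name of the liver list, and its reads were spread over many sequences. Counting each mature sequence once, at its highest count over entries, the family held 24206232 of 272589277 mature reads. That was 8.88% (exact binomial 95% interval 8.877% to 8.883%, for counting error only). Reads of amplified libraries without molecular identifiers are not independent molecules, so this interval and those below are too narrow for any other source of error. The hepatocyte miRNA name miR-122 held 64.8% of the list, and let-7 made up 25.2% of the reads outside it. As a check of the labelled tissue, the names of the hepatocyte list (miR-122, miR-192, miR-194) held 66.5% of reads over 10 sequences. The endothelial names held 0.763%. The smooth muscle or mesenchymal names miR-143 and miR-199 held 0.969%, of which miR-143 made up 0.869% of the list, and no entry carried miR-145. The erythroid names held 0.156%, all under miR-451, and the leukocyte names miR-150 and miR-155 together 0.00271%. No entry carried the leukocyte names miR-223 and miR-142.

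Of the 14 let-7 sequences, 8 held more than 1000000 mature reads each, the highest number of any seed name. The next names by this count were miR-22a-3p, miR-148 and miR-100-5p, with 2 such sequences each. Sequence 1 held 10142987 mature reads, or 41.9% of the family (exact binomial interval 41.88% to 41.92%). The most abundant sequence held 99.98% of the miR-122 reads and 56.8% of the miR-22a-3p reads. Other names had like or lower shares: 51.9% for miR-148, 47.3% for miR-25-3p, 44.7% for miR-19b-3p, 42.5% for miR-457b-5p and 29.5% for miR-20b-5p. Such a spread was therefore not particular to let-7. The family was thus led by 1 sequence without being made up of it. The first 5 sequences held 78.8% of let-7 reads.

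Behind sequence 1 the reads declined in small steps down to sequence 9. Sequence 2 held 2801612 mature reads, sequence 3 held 2160154 and sequence 4 held 2039586. Sequence 5 held 1938743, sequence 6 held 1458467 and sequence 7 held 1371895. These 6 sequences lay at ranks 11 to 22 of the whole list, and each was listed on the 5p arm of its best-scored precursor. Sequence 8 held 1027744 mature reads and sequence 9 held 827047. The remaining full-length members were rarer, with 318908 reads for sequence 10, 105849 for sequence 11 and 12997 for sequence 12.

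**Figure D1:**
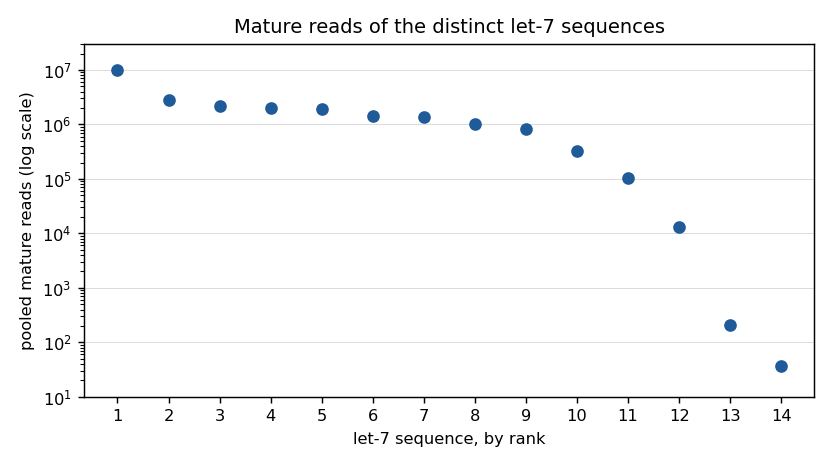
Pooled mature reads of each of the 14 let-7 sequences on a log axis, 1 point per sequence, ordered by rank. Sequence 1 stands at 10142987 reads, sequences 2 to 8 lie between 2801612 and 1027744, and sequences 13 and 14 have 206 and 37.

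All 12 sequences from 1 to 12 were 22 nt long, and they held 99.999% of let-7 reads. A length of 22 nt was found for 85.7% of let-7 sequences and for 37.6% of the 186 other seed-matched ones, that is, those with a zebrafish example. A first base of U, which Argonaute proteins favour at the 5′ end, was found in 13 of 14 let-7 sequences (92.9%) and in 69.9% of the other seed-matched ones. Sequence 12 began with A. These shares are descriptions without a test, since related sequences are not independent.

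Outside the seed, the 12 full-length sequences differed in 2 short windows. Positions are counted from 1 at the 5′ end, and a change is written as the base of sequence 1, the position and the base of the other sequence. Positions 9 to 12 and 16 to 19 varied, and so did position 1, in sequence 12 alone. Positions 13 to 15 and 20 to 22 were the same in all 12, as were the seed positions, which the rule had fixed. Position 12 varied most: 6 sequences differed there from sequence 1, and they held 36.0% of the reads of the 12. Position 19 came next, with 5 differing sequences and 24.7% of reads.

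**Figure D2:**
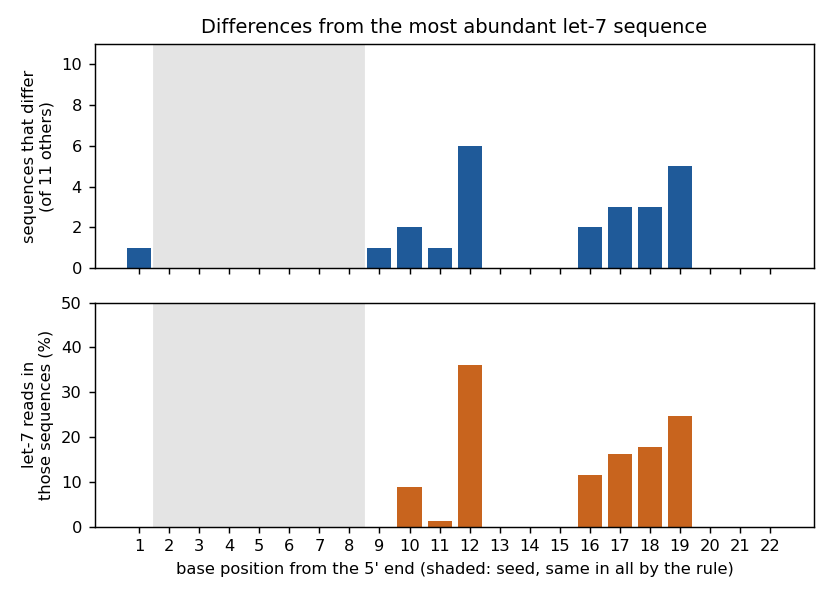
Upper panel, number of the 11 other full-length let-7 sequences that differ from sequence 1 at each base position. Lower panel, share of let-7 reads (%) held by those sequences; the shaded seed is equal by the rule, and positions 12 (6 sequences, 36.0%) and 19 (5 sequences, 24.7%) stand out.

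Several abundant members were 1 base away from sequence 1. Sequence 5 carried A19G, sequence 7 carried G12A, sequence 8 carried G12U and sequence 9 carried U18C. Sequence 2 carried G12A and U16G, so it was 1 base from sequence 7. Sequence 3 carried A17G and A19G, and sequence 11 carried A10U and A19G. Sequence 4 differed by A10U, G12U and U18C, and sequence 10 by G11A, A17G and A19U. Sequences 6 and 12 were farthest, with 4 substitutions each: G12U, A17G, U18C and A19U in sequence 6, and U1A, U9C, G12A and U16C in sequence 12. Of the 66 pairs among the 12 sequences, 8 differed by a single base. No source used here says how many mismatches were allowed in counting, so reads of such neighbours may not be fully separated.

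The last 2 members differed from the rest in length, reads and hairpin. Sequence 13 was 19 nt long and had 206 mature reads, on scaffold 197683 (965 to 1009, plus strand). It shared the first 8 bases of sequence 1, and its nearest full-length member was sequence 2, at 4 edits (a base changed, added or lost). Sequence 14 was 18 nt long and had 37 mature reads, on scaffold 8740 (9752 to 9822, plus strand). It shared the first 14 bases of sequence 1 and differed after them. Both had 0 star reads, both lay on the 3p arm, and their miRDeep2 scores were 0.5 and 3.6. With 0 star reads, the exact binomial upper limits of the star share were 1.77% for sequence 13 and 9.49% for sequence 14.

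The 24 entries lay at 20 loci on 16 scaffolds once predictions that overlap on a strand were merged. Coordinates are those of the whole-genome shotgun scaffolds named in the list, counted from 1; no source used here names the build, and no gene annotation of these scaffolds was used. Of the 14 sequences, 5 were listed at more than 1 locus: sequence 1 at 3 loci, and sequences 2, 5, 6 and 11 at 2 loci each. Sequence 3 had 1 locus, on scaffold 1505 (81045 to 81121, minus strand), with 489 star reads. The 186 other seed-matched sequences were listed in 287 entries, which were not merged into loci. Whether copies on separate scaffolds are separate genes was not tested. Copies of a mature sequence had nearly the same count at each locus. For sequence 2 it was 2801612 at both loci, for sequence 5 it was 1938743 at both, and for sequence 11 it was 105849 at both. Sequence 6 had 1458467 reads on scaffold 1049 (93084 to 93160, minus strand) and 1458461 on scaffold 11483 (9892 to 9968, plus strand). Sequence 1 had 10142987, 10070960 and 10059010 reads at its 3 loci, a spread of 0.828%. Reads of copies thus appear to be entered at each locus, and loci of 1 sequence cannot be ranked by them.

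The 3 precursors of sequence 1 are shown here, with the mature arm in capitals, because they share that arm and differ in the rest.
scaffold 403134 (96 to 168, plus strand): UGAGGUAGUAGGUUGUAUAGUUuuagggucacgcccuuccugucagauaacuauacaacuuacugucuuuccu
scaffold 10 (418416 to 418487, plus strand): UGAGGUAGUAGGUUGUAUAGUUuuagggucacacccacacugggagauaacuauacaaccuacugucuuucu
scaffold 11351 (4260 to 4337, minus strand): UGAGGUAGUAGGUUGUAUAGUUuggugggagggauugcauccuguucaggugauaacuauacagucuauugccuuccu
Outside the mature arm, the hairpins on scaffolds 403134 and 10 were 8 edits apart, and the one on scaffold 11351 was 21 edits from each of them. The hairpin on scaffold 10 was closer to that of sequence 8 on scaffold 13373, at 6 edits, than to either hairpin with its own mature sequence.

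The 3 loci of sequence 1 had different star sequences, 3 to 7 edits apart, of which some are a shift of the listed ends. The star arm cuauacagucuauugccuuccu on scaffold 11351 had 2813 reads, or 48.2% of the 5834 star reads of the 3 loci (exact binomial interval 46.9% to 49.5%). The star arm uauacaacuuacugucuuuccu on scaffold 403134 had 1962 reads, or 33.6%. The star arm cuauacaaccuacugucuuucu on scaffold 10 had 1059 reads, or 18.2%. All 3 loci thus had star reads listed, and none held nearly all of them.

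The star arms of the other copied members were compared in the same way. For sequence 2, the star arm on scaffold 5888 (4154 to 4226, minus strand) had 845 reads and that on scaffold 11351 (5326 to 5398, minus strand) had 531. These arms differ by 1 substitution, G5A from scaffold 5888 to scaffold 11351. For sequence 5, the star arm on scaffold 11165 (4174 to 4241, plus strand) had 244 reads and that on scaffold 2237 (51744 to 51810, plus strand) had 49. There were 4 edits between them, of which some are a shift of the listed ends. The star arm on scaffold 2237, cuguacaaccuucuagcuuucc, was also the star arm of both loci of sequence 11, which had 43 reads each. Star reads of sequences 5 and 11 can therefore be shared. The 2 loci of sequence 6 also share their star arm, with 518 reads on scaffold 1049 and 431 on scaffold 11483. Of the 18 loci with star reads, 13 had a star sequence found at no other let-7 locus.

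Star use of let-7 was low. Star reads were listed at 20 of 24 let-7 entries (83.3%) and at 185 of 287 other seed-matched entries (64.5%). Of these 20, 2 were overlapping predictions, described below, whose listed star sequence lay upstream of the 5p hairpin. Read depth was not matched in this count. For deep precursors (mature count of 100000 or more) it was 17 of 17 let-7 loci and 59 of 62 other entries (95.2%), so little difference remained. The median share of star reads in mature plus star reads was 0.0164% over the 24 let-7 entries, with quartiles of 0.00214% and 0.0297%. It was 0.0987% over 276 other seed-matched entries with at least 10 such reads, with quartiles of 0% and 1.78%. The 24 let-7 entries include 6 with a score under 10, which lower these values. Over the 18 let-7 loci with star reads the median was 0.0251%, with quartiles of 0.0110% and 0.0342%. Over other seed-matched entries with star reads it was 0.732%, with quartiles of 0.0991% and 4.90%. With at least 1000 reads, 21 of 22 let-7 entries (95.5%) had a star share under 0.1%, against 76 of 172 other seed-matched entries (44.2%). By merged loci it was 17 of 18 for let-7, while the other entries were not merged. Among loci with at least 100000 mature reads, a level chosen after the values were seen, the median was 0.0226% over 17 let-7 loci and 0.180% over 62 other entries. The quartiles were 0.0105% and 0.0302% for let-7 and 0.00487% and 1.12% for the other entries, so some of those lay lower than let-7. No test is given, because copies share reads. Since the mature count of a copied sequence is entered at each locus, the star share of a single copy can be too low where its star arm is its own.

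The star share differed widely within the family. To rank the 12 sequences with star reads, the distinct star sequences of all loci of a mature sequence were summed, a choice made after the values were seen. The share was lowest for sequence 4 on scaffold 106 (108431 to 108508, plus strand), with 20 star reads beside 2039586 mature reads, or 0.000981% (exact binomial interval 0.000599% to 0.00151%). Sequence 9 followed with 37 star reads and 0.00447%, and sequence 8 with 71 star reads and 0.00691%. Sequence 5 came after them, with 293 star reads over its 2 loci and 0.0151%. Sequence 12 on scaffold 10 (419365 to 419440, plus strand) stood alone at the other end, with 306 star reads beside 12997 mature reads, or 2.30% (interval 2.05% to 2.57%). Below it came sequence 1 with 0.0575% over its 3 loci (interval 0.0560% to 0.0590%) and sequence 2 with 0.0491% over its 2 loci (interval 0.0465% to 0.0518%). Sequence 10, with 147 star reads on scaffold 13373 (2077 to 2158, minus strand), had 0.0461% (interval 0.0389% to 0.0542%), which was not distinguishable from sequence 2 by counting error. Of the 12 sequences, 11 had a star share under 0.1%. Over the 18 loci with star reads, mature counts spanned 780-fold and star counts 141-fold.

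**Figure D3:**
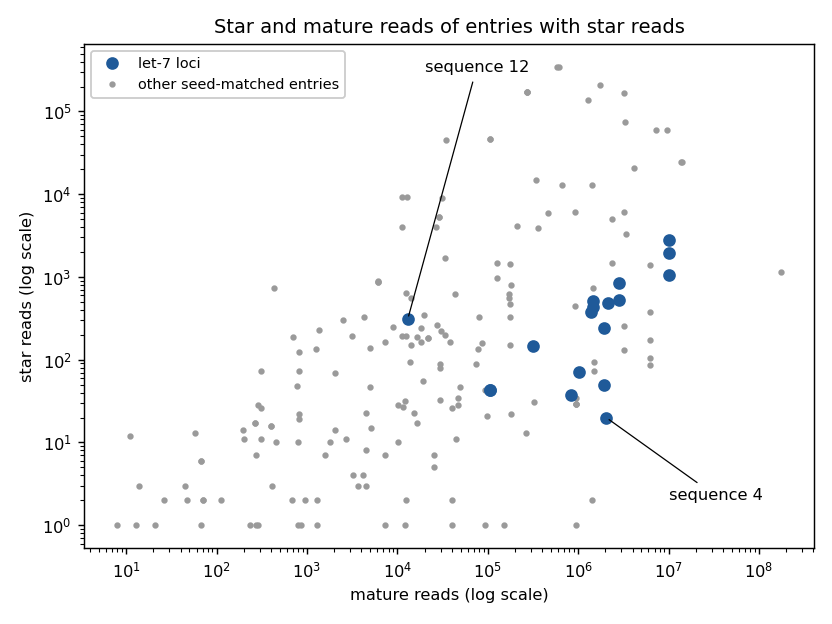
Star reads against mature reads, both on log axes, for the 18 let-7 loci with star reads (large points) and for 185 other seed-matched entries with star reads (small points). Sequence 12 has 306 star reads at 12997 mature reads and sequence 4 has 20 at 2039586, and 17 of the 18 let-7 loci have a star share under 0.1%.

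In the best-scored entry of each of the 18 loci with star reads, the mature sequence was on the 5p arm. Over entries with at least 10 reads, that arm was 5p in 18 of 24 let-7 entries (75.0%) and in 55.8% of other seed-matched ones. The 6 let-7 entries on the 3p arm were sequences 13 and 14 and 4 overlapping predictions. These 6 were also the let-7 entries with a score under 10, between 0.4 and 3.6. The other 18 scored at least 6785.3, which was 0.51 per read in each of them.

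Each of the 4 overlapping predictions reused the 22 bases of a let-7 mature sequence as the 3p arm of another hairpin reaching upstream. They concerned sequence 1 on scaffolds 10 and 11351, sequence 6 on scaffold 1049 and sequence 8 on scaffold 13373. The overlap was 22 nt in all 4, exactly the mature sequence, and the same mature reads were entered at both predictions. RNAfold gave these hairpins, which were 41 to 80 nt long, a minimum free energy of -7.5 to -18.1 kcal/mol. In them, 11 to 15 of the 22 mature bases were paired. The 5p hairpins at the same loci were 72 to 78 nt long and had -24.3 to -34.8 kcal/mol, with 20 or 21 bases paired. Length was not matched: -7.5 and -8.1 kcal/mol belonged to predictions of 43 and 41 nt. Over the 18 loci with star reads the median was -30.6 kcal/mol at a median length of 73 nt, and over other seed-matched entries -23.3 kcal/mol at 60 nt.

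The overlapping predictions also listed some reads outside the 5p hairpins. On scaffold 13373, the alternative star sequence agaauugcuugcuuuggga had 142 reads, and it ended directly before the first base of sequence 8 (2496 to 2567, minus strand). The star arm of sequence 8 itself had 71 reads, so the stretch upstream of the precursor had more reads than the star arm. On scaffold 11351, the stretch directly before sequence 1 had 1 read. On scaffolds 10 and 1049 the alternative star arms lay 36 and 14 nt from the mature arm and had 0 reads. The exact binomial upper limits of their star share were 3.66e-05% and 0.000253%. The prediction on scaffold 10 also listed 2 loop reads.

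Neighbouring loci were then compared, on the same scaffold and strand and with starts within 10 kb. On scaffold 10, sequences 1, 7 and 12 followed each other in 1025 nt (418416 to 419440, plus strand). On scaffold 11351, sequences 2 and 1 lay within 1139 nt (4260 to 5398, minus strand), with sequence 2 first in the direction of transcription. On scaffold 13373, sequences 8 and 10 lay within 491 nt (2077 to 2567, minus strand), with sequence 8 first. On scaffold 10 the mature reads were 10070960, 1371895 and 12997, a 775-fold range that includes reads shared with other copies of sequence 1. The star reads of the same 3 precursors were 1059, 378 and 306, a 3.46-fold range. The low mature count of sequence 12 thus stood beside a star count close to that of its neighbour, sequence 7.

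Another 3 loci lay beside miR-100 or miR-125, which accompany let-7 in many animals. On scaffold 1678, miR-100-5p (122128 to 122183) began 298 nt upstream of sequence 9 (122426 to 122492, plus strand). On scaffold 2237, miR-100-5p (49611 to 49669) began 2133 nt upstream of sequence 5. On scaffold 825, miR-125a (47356 to 47413) lay downstream of sequence 11 (54388 to 54457, minus strand), with 6974 nt between the precursors. In each case the order was that of the vertebrate clusters: miR-100 before let-7, and let-7 before miR-125. The only other listed neighbour within 10 kb was an unmatched precursor with 62 mature reads, upstream of sequence 2 on scaffold 5888. Some loci lay near a scaffold start, such as sequence 1 on scaffold 403134 (96 to 168), where the full 10 kb could not be searched.

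Listed counts differed between the neighbours in these pairs. Only on scaffold 1678 were both mature sequences listed at no other locus. On scaffold 1678, sequence 9 had 827047 mature and 37 star reads, and miR-100-5p had 1748448 mature and 205955 star reads. The star share was thus 0.00447% for sequence 9 and 10.5% for miR-100-5p, at precursors 242 nt apart. On scaffold 2237, sequence 5 had 1938743 mature and 49 star reads, and miR-100-5p had 3226945 mature and 256 star reads. The star shares there were 0.00253% and 0.00793%, so this miR-100-5p entry did not have a high share. On scaffold 825, sequence 11 had 105849 mature and 43 star reads, and miR-125a had 21745 mature and 185 star reads. Their star shares were 0.0406% and 0.844%. The list also holds a second entry for each of these 4 mature sequences, but on separate scaffolds: miR-100-5p on 269888 and sequence 5 on 11165, miR-125a on 4953 and sequence 11 on 29554.

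**Figure D4:**
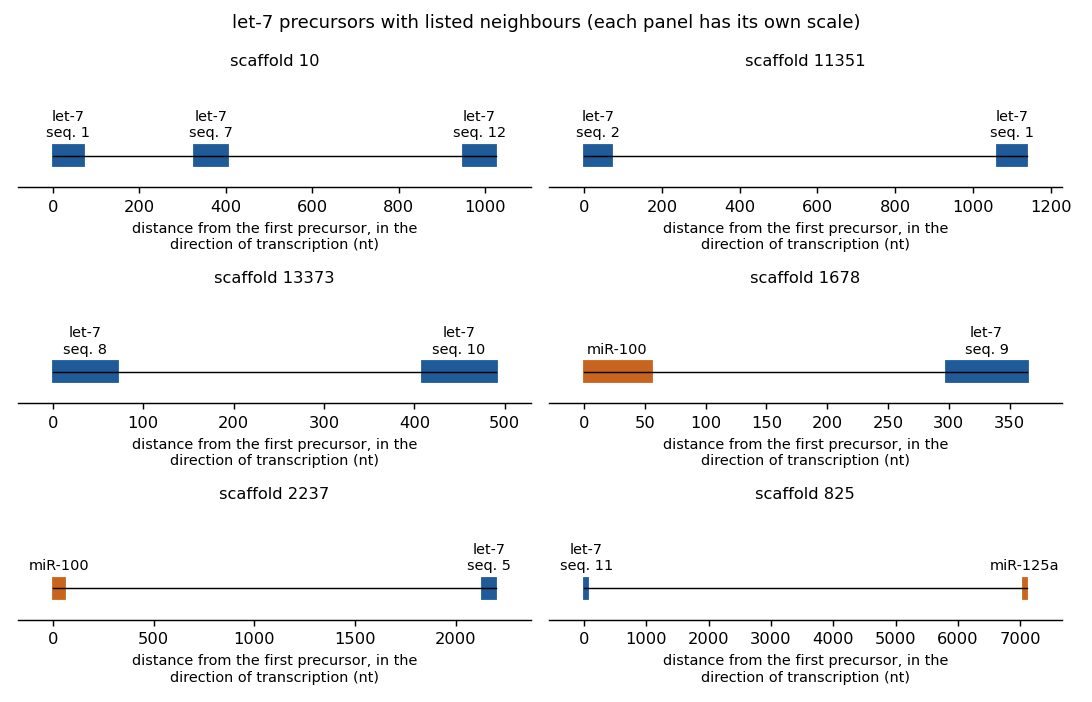
Maps of the 6 scaffolds where a let-7 locus has a listed let-7, miR-100 or miR-125 neighbour within 10 kb, drawn in the direction of transcription with distance in nt and a scale of its own in each panel. Boxes are precursors: 3 let-7 loci follow each other on scaffold 10, miR-100 precedes let-7 on scaffolds 1678 and 2237, and miR-125a follows it on scaffold 825.

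Among the 18 loci with star reads, those of the members found beside miR-100 and miR-125 had the shortest parts between the arms. Sequences 5, 9 and 11 gave 5 loci, with 23 to 26 nt between the mature and star arms and precursors of 67 to 70 nt. The other 13 loci with star reads had 28 to 38 nt between the arms and precursors of 72 to 82 nt. This grouping was made after the values were seen. Outside the mature arm, the hairpins of sequence 5 on scaffolds 2237 and 11165 were 3 edits apart, and that of sequence 9 was 5 and 6 edits from them. The 2 hairpins of sequence 11 were 2 edits apart, and those of sequence 6 were 3 edits apart. By contrast, sequence 4 had no hairpin closer than 17 edits, and sequence 10 none closer than 16. The nearest was at 14 edits for sequence 7 and for sequence 1 on scaffold 11351, and at 11 for sequences 3 and 12.

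The letters GGAG were then searched on the transcribed strand in the part between the arms, because LIN28 is known to bind them there in mammals. They were found at 13 of the 18 loci with star reads, and at 14 of all 20 (70.0%), including that of sequence 14. All 820 precursors, which were not merged into loci and include let-7, held them there in 6.34% of cases. By entries without merging, the share was 58.3% for let-7 and 4.88% for the other seed-matched ones. The let-7 loci are not independent, since several hairpins are near copies, such as those of sequence 11 at 2 edits. No test is therefore given. The part between the arms was longer in let-7, with a median of 29 nt over the 20 loci against 16 nt over the other seed-matched entries. Among the 107 other entries with at least 23 nt there, the length of the shortest let-7 locus with star reads, 9.35% held GGAG. Of these 107, only 22.4% had a miRDeep2 score of at least 10 and 39.3% had star reads, so score and star reads were not matched. This second background was chosen after the values were seen. The part between the arms is shown here for 5 loci, with GGAG in capitals.
sequence 1, scaffold 10: uuagggucacacccacacugGGAGauaa
sequence 4, scaffold 106: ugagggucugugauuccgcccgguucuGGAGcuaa
sequence 5, scaffold 2237: uagaauuacacccugGGAGuuaa
sequence 12, scaffold 10: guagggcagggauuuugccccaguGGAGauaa
sequence 7, scaffold 10: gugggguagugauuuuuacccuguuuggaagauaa
In 11 of the 13 loci, exactly 4 bases stood between GGAG and the star arm. There were 5 such bases for sequence 5 on scaffold 11165, where the listed star arm began 1 base later than on scaffold 2237. For sequence 1 on scaffold 11351 there were 25, and GGAG lay near the mature arm. The letters were not found in this window for sequence 2 at either locus, sequence 3, sequence 7, or sequence 1 on scaffold 403134. The 2 copies of sequence 1 with GGAG therefore had it at opposite ends of this part. A match describes letters only, and whether the eel protein binds there was not measured.

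**Figure D5:**
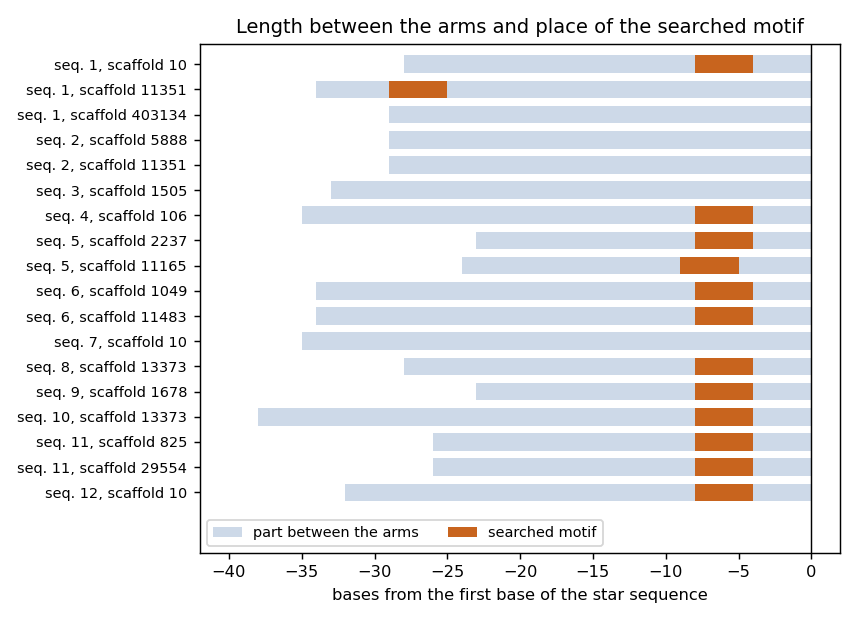
Part between the mature and star arms of the 18 let-7 loci with star reads, drawn as bars ending at the first base of the star arm (0 on the axis, in bases), with the searched motif GGAG marked. GGAG ends 4 bases before the star arm at 11 loci and is not found at 5.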

How the data were processed

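Liver small RNA was isolated with a kit for miRNA and sequenced from an Illumina small RNA library kit, per the labels' protocols. Reads were split by library with bcl2fastq 2.17.1.14, a tool named in the submitters' processing notes. The authors deposited raw read counts (mature, star, loop and total), with no normalization, for each precursor that miRDeep2 had predicted, per the file headers. They also deposited the miRDeep2 score, a log-odds score per precursor. No column names a sample, so counts were read as pooled. No source used here says which of the 12 libraries were pooled, how reads were trimmed or aligned, or how deep each library was.

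Starts in the list are 0-based and were moved by 1. Each mature sequence was counted once, at its highest mature read count. Entries overlapping by at least 1 base on a strand formed a locus, described by its best-scored entry. The arm was read from the precursor, and edits are Levenshtein distances. Hairpins were folded with RNAfold 2.7.2. All let-7 sequences and loci, all neighbours within 10 kb and the extremes of star share were named. Intervals are exact binomial (Clopper-Pearson, 95%). Alternatives were score minimums, other ways to count copies, read minimums and other distances. Python 3.11.15, pandas 2.3.3, numpy 2.4.6, scipy 1.17.1 and matplotlib 3.10.9 were used, and the functions were tested on simulated data. The members and lists were chosen with earlier results of these data known.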

Additional observations from a re-analysis of the deposited data

Results flagged for a closer look

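Loop reads, which come from between the arms, entered no comparison above. They numbered more than 3, a level set for description only, at 11 of 24 let-7 entries (45.8%) and at 23 of 287 other seed-matched entries (8.01%). Among loci with at least 100000 mature reads these shares were 64.7% of 17 let-7 loci and 16.1% of 62 other entries. Length was not matched there: the median between the arms was 29 nt in these let-7 loci and 16 nt in the other entries. Of the 107 entries outside let-7 with at least 23 nt between the arms, 5 (4.67%) exceeded 3 loop reads. Only 10 of these 107 had at least 1000 reads, so a difference at equal length and depth was not tested. Sequence 1 had 125 loop reads on scaffold 10, 49 on scaffold 403134 and 39 on scaffold 11351. Sequence 5 had 44 on scaffold 2237 and 44 on scaffold 11165, whose precursors share their first 47 bases, so these can be the same reads. Sequence 4 on scaffold 106 had 32 loop reads, more than its 20 star reads. Sequence 9 on scaffold 1678 had 31 loop and 37 star reads. Sequence 11 had 21 loop reads on scaffold 825 and 0 on scaffold 29554, whose precursors are 2 edits apart. Fewer were listed on scaffold 13373, with 6 for sequence 8 and 5 for sequence 10, and for sequence 7 on scaffold 10, with 4.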

How the results depend on the processing

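The let-7 share of 8.88% became 26.1% at a score of at least 4 and 26.1% at 10, where the miR-122 precursor and other entries drop out. With only the miR-122 reads left out it was 25.2%. The let-7 share was 18.9% with reads summed over entries, 8.83% by total reads, 8.90% with length variants counted once and 4.15% with 1 sequence per seed. The share of sequence 1 within the family, 41.9%, was 68.8% with reads summed over entries and 100% with 1 sequence per seed. Star reads were seen for 12 of the 14 sequences. The median star share was 0.0191% at a score of at least 1 and 0.0251% at 4 and at 10. It was 0.0191% with at least 1000 reads and 0.0210% over merged loci. Per mature sequence, with the star sequences of its loci summed (chosen after seeing the data), it was 0.0315%. The other 25 recomputed values kept within the counting interval or within 1.5 times the reported count. No paired analysis was possible because the list has no counts per eel. For the same reason no eel could be left out. Counts describe the pooled libraries only, and mature reads of copies and of sequences 1 base apart may be shared.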

Other observations

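A search for further let-7 members among the 796 other entries found 0 mature sequences within 2 substitutions of a let-7 sequence after a shift of the 5′ end by up to 2 bases. The letters of the let-7 seed were present in 3 of these 796 precursors and in 1 mature sequence, outside bases 2 to 8. In 0 of them did the star sequence carry the seed at bases 2 to 8, and 0 other entries overlapped a let-7 locus on either strand. Members with several letter differences or a larger shift would not be found in this way.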
